A study of Rattus norvegicus with 12 samples.

Results

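The spliceosome is described here through the 133 genes that the KEGG annotation deposited with the count table places in the spliceosome pathway, out of 18749 genes listed. The members were chosen by that annotation alone, and 132 of them passed the filter on low counts, against 15704 of all genes. The other one, Rbmxl1b, had 26 counts over all libraries. By role, 128 members are core proteins, splicing factors and copies of them, and 5 are heat shock proteins of the HSP70 family, which are described apart.

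Polyadenylated RNA was sequenced from 12 samples of wild-type rat intestine in a study of bowel adaptation to loss of the colon. The group preSTC holds 4 samples labelled as preoperative (replicates 1, 5, 7 and 9), postSTC holds 4 labelled as postoperative (replicates 1, 2, 5 and 7), and preCTC holds 4 taken ahead of a sham operation (replicates 1, 5, 7 and 9). The labels name 1 batch for all samples, give no age, sex, bowel segment or time since surgery, and do not explain STC or CTC. Samples from after a sham operation are not analysed here, so effects of surgery and of elapsed time cannot be told apart, and since nothing says that replicates are separate animals, the spread behind each p-value may be only technical. With no segment given, a difference in the bowel segment sampled cannot be told apart from a difference between groups.

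The spliceosome removes introns from precursor RNA. It is built from small nuclear ribonucleoproteins (snRNPs), each a small nuclear RNA with a ring of Sm or LSm proteins and its own specific proteins. U1 recognises the start of the intron, U2 the branch point, and the tri-snRNP of U4/U6 and U5 then joins and is remodelled by RNA helicases and the Prp19 complex into the catalytic form. SR proteins and heterogeneous nuclear ribonucleoproteins (hnRNPs) bind the transcript and steer which exons are kept, and the exon junction complex marks the joined exons for export. Reads of small nuclear RNAs themselves and of splice junctions were not analysed here, so what follows concerns the messenger RNA of the protein parts and not splicing itself.

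Libraries held 30095656 to 39374682 counts. One library stood apart: in postSTC7, 44.2% of all counts came from 11 genes of the male accessory glands, and Semg1, a seminal clotting protein gene, took 17.1%. In the other libraries these genes took between 0 and 0.0251% of the counts. The scaling factor of postSTC7 under the trimmed mean of M values (TMM) was 0.568. All 8 epithelial markers (Epcam, Vil1, Cdx1, Cdx2, Krt20, Lgals4, Krt8 and Cdh1) had counts in every library. Levels below are CPM, the count relative to the library size, scaled by TMM, and a member is called when its two-sided edgeR quasi-likelihood test had a Benjamini-Hochberg adjusted p under 0.05 over all genes tested. Errors of levels are SD over 4 libraries and errors of log2 fold changes are SE. Where a member is given 2 log2 fold changes with no comparison named, the first is postSTC against preSTC and the second preSTC against preCTC.

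After the operation the spliceosome genes were mostly lower than before it. In postSTC against preSTC, 45 of 132 members fell (34.1%, against 6.9% of all genes tested) and 2 rose (1.52%, against 11.1% of all genes). The 4 postSTC libraries all lay below the 4 preSTC libraries for 67 members (50.8%, against 10.2% of all genes), and all above them for 6 (4.55%, against 11.9%). The log2 fold change was negative in 111 of 132 members, with a median of -0.23 beside 0.04 over all genes tested. The changes were small: the 45 lower members had log2 fold changes between -0.27 and -0.88. Snrpa, which encodes a U1 protein that binds U1 RNA directly, fell most.

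The summed CPM of the 128 members other than heat shock proteins was between 13044 and 13600 in the preSTC libraries, between 10979 and 11330 in postSTC and between 10624 and 11300 in preCTC. The preSTC libraries thus stood above both other groups without overlap, and postSTC overlapped preCTC. As tissue was sequenced whole, fewer cells of a kind that makes much of these messages and less message per cell cannot be told apart.

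Whether equal replicate numbers mark related samples is not stated. Deviations from the group means of postSTC and preSTC correlated at 0.31, 0.21 and 0.18 for numbers 1, 5 and 7. Between different numbers they correlated at 0.13 or less. The replicate number was then used as a block. In the fit over 12 libraries, 26 members fell (19.7%, against 4.51% of all genes), all 26 among the 45. In the same fit 0 rose, against 6.61% of all genes (5 had a positive change at an unadjusted p under 0.05). With the block in the 8 libraries of these groups alone, where edgeR called 8 genes lower and 60 higher in all, 0 members were called in either direction, and 40 were lower and 4 higher at an unadjusted p under 0.05. The share of all genes at an unadjusted p is not given for this fit, so these counts cannot be read as an excess. Left out one at a time, preSTC1 and preSTC7 lowered the count of fallen members the most, to 27 and 26. These were 20.5 and 19.7% of members, against 3.85 and 3.78% of all genes. Without postSTC7, the library with accessory gland counts, 47 members fell (35.6%, against 7.27% of all genes), 40 of them among the 45. In that fit 1 rose (0.758%, against 11%).

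**Figure D1:**
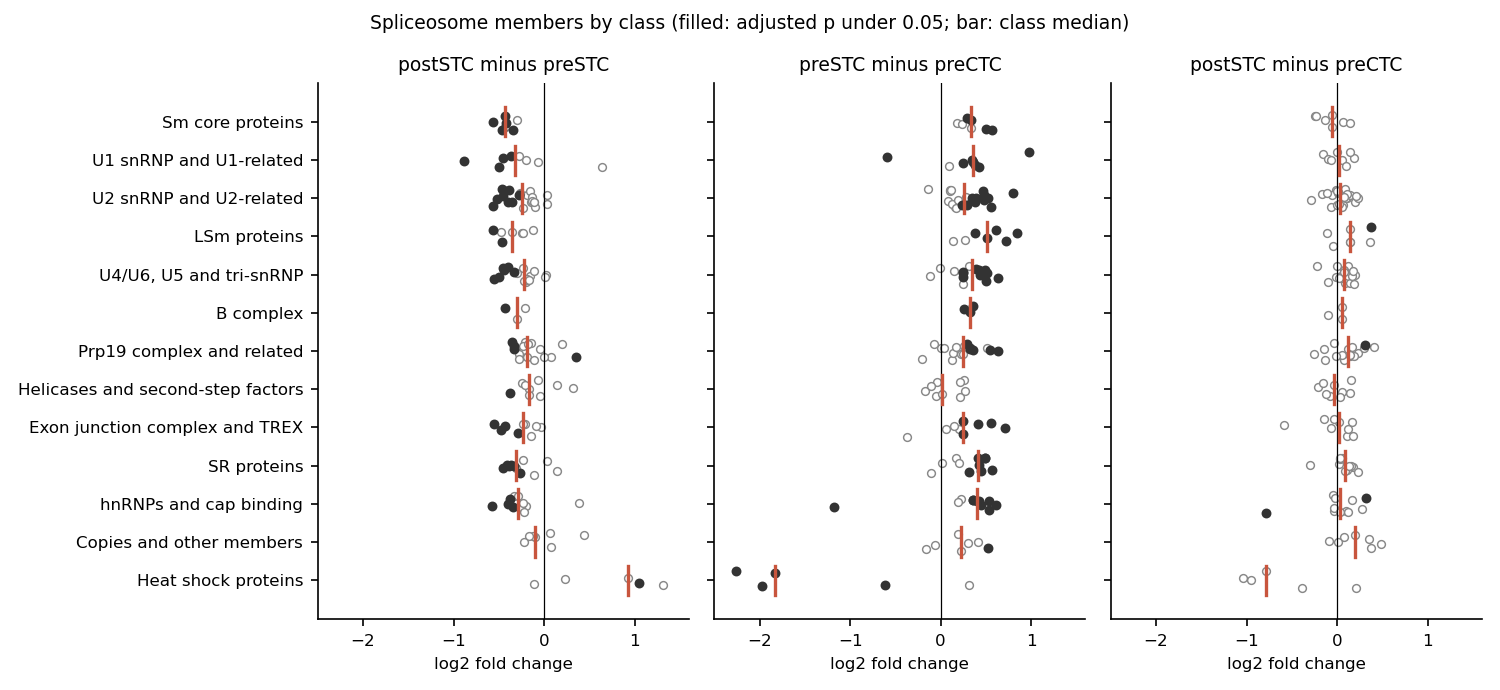
Log2 fold change of each tested spliceosome member, by class, in the 3 comparisons. Filled points passed the test, open points did not, and the bar is the class median. Medians lie left of 0 in 12 of 13 classes for postSTC minus preSTC, right of 0 in the same 12 for preSTC minus preCTC, and near 0 for postSTC minus preCTC, while heat shock proteins lie opposite.

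The preoperative groups also differed. In preSTC against preCTC, 67 of 132 members were higher (50.8%, against 19.1% of all genes) and 6 were lower (4.55%, against 19.6%). Libraries did not overlap in 76 members with preSTC above preCTC (57.6%, against 22.5% of all genes) and in 5 with preSTC below (3.79%, against 22.5%). The median log2 fold change was 0.28 beside -0.02 over all genes. This comparison and the previous one share the preSTC libraries, which were the high group in both, so their values are set side by side below and not used to support each other. In postSTC against preCTC, 3 members were higher (2.27%, against 9.27% of all genes) and 1 was lower (0.758%, against 7.37%), with a median of 0.05 beside 0.04.

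**Figure D2:**
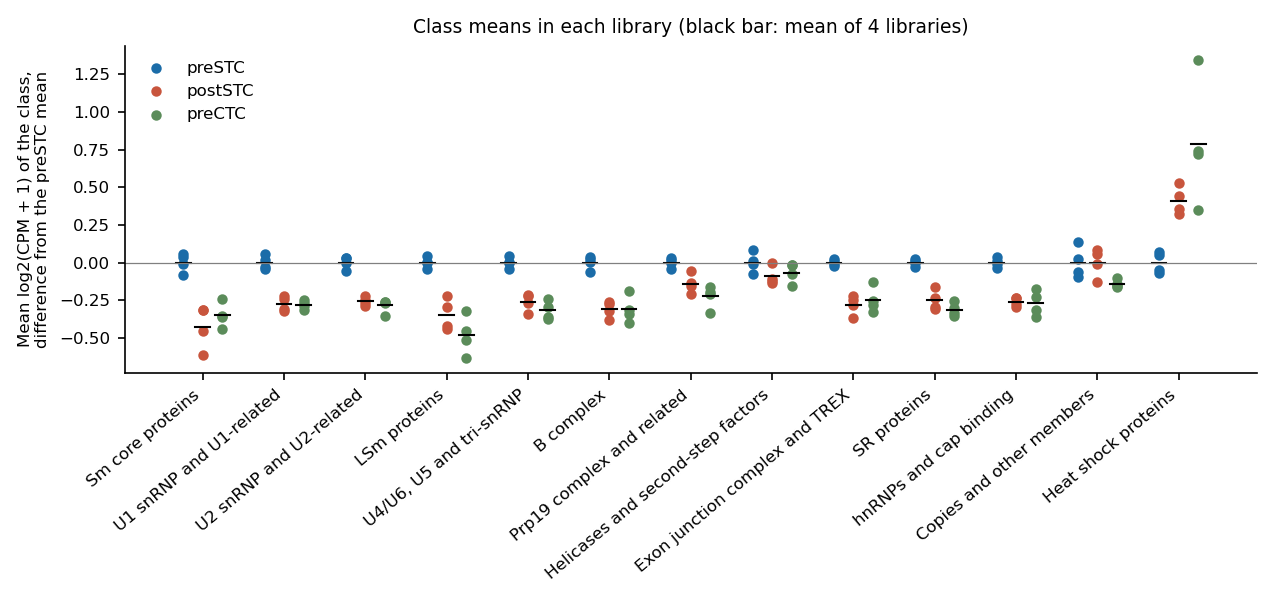
Mean log2(CPM + 1) over the tested members of each class in each library, as the difference from the preSTC mean of that class. Each point is 1 library, coloured by group, and each bar is the mean of 4. In 10 classes every preSTC library lies above every postSTC and preCTC library, and in the heat shock class every preSTC library lies below.

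The Sm ring, 7 proteins that form the shared core of U1, U2, U4 and U5, was lower in postSTC. Of its 7 tested genes 5 fell in postSTC (71.4%, against 6.9% of all genes). All 7 had their postSTC libraries below their preSTC libraries (100%, against 10.2%), and the median log2 fold change was -0.43. In preSTC against preCTC 4 of the 7 were higher (57.1%, against 19.1%), with a median of 0.34. Per length, Snrpd2 and Snrpg were the most abundant of the ring, at mean TMM-scaled FPKM of 169 and 159 over 12 libraries.

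Snrpg, the SmG gene, had 69.5, 82.6, 83.2 and 86.5 CPM in preSTC, 47.6, 62.2, 64.7 and 42.3 CPM in postSTC and 60.3, 67.1, 62.1 and 65.1 CPM in preCTC. Its postSTC libraries were all below preSTC and overlapped preCTC. Its log2 fold change was -0.57 ± 0.13 (adjusted p = 0.0139) in postSTC against preSTC and 0.34 ± 0.13 (adjusted p = 0.062) in preSTC against preCTC. Snrpd2, the SmD2 gene, fell by 0.43 ± 0.09 on the log2 scale (adjusted p = 0.00829), from 104 ± 10.9 to 77.2 ± 4.46 CPM, with 91.3 ± 5.18 CPM in preCTC. Snrpg has a listed copy, LOC687679, and Snrpd2 has Snrpd2l, so reads may be shared between them. The other members of the ring, named here after their values were seen, had log2 fold changes in postSTC against preSTC of -0.47 ± 0.10 for Snrpb, -0.42 ± 0.11 for Snrpf, -0.35 ± 0.10 for Snrpe, -0.44 ± 0.15 for Snrpd1 and -0.29 ± 0.10 for Snrpd3, of which Snrpd1 and Snrpd3 did not pass the test (adjusted p = 0.0688 and 0.0553).

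Because these genes moved together, their promoters were read from RefSeq (assembly GRCr8, 250 bases upstream of each start), which holds 118 of the 133 members with 123 starts. The letters CCGGAAG, the core bound by ETS family factors, searched on both strands, were in 36 of 123 member starts (29.3%), beside 10.9% of 17201 starts of genes in the count table and 7.27% of all 33469 starts. Among members that fell in postSTC 11 of 41 starts held them (26.8%), and among the other members without heat shock proteins 25 of 78 (32.1%). The letters GCATGCGC, part of the NRF1 motif, were in 10.6% of member starts and 3.39% of starts of genes in the count table, TGACGTCA (the cAMP response element) in 5.69% and 2.21%, CCAAT in 42.3% and 34.5%, and TATAAA in 5.69% and 9.1%. With members split as above into those that fell and the others, TATAAA was in 5 of 41 starts (12.2%) and 2 of 78 (2.56%). In the same order, GCATGCGC was in 14.6 and 8.97%, TGACGTCA in 7.32 and 5.13%, and CCAAT in 48.8 and 38.5%. Differences between these 2 sets of members were not tested. Each motif was searched on both strands and counted on its own, so matches of different motifs may overlap, and a match is a description of letters and not a bound site.

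Windows around the match are shown for 4 members that fell in postSTC, from the Sm ring, U5 and U2, with the 7 matched bases in capitals, 5′ to 3′ on the strand of the gene (RefSeq, GRCr8). The counts were made on another assembly, and these coordinates are of GRCr8 only.
Snrpb, chr3:137832488-137832546 (- strand): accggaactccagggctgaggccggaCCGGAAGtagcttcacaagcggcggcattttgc
Snrpg, chr4:120369568-120369626 (+ strand): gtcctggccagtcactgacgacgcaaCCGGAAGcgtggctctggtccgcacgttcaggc
Snrnp40, chr5:147984705-147984763 (+ strand): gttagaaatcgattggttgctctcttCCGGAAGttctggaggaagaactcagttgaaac
Sf3a2, chr7:9566221-9566279 (- strand): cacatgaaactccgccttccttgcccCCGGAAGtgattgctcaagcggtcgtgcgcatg

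The member that fell most in postSTC, Snrpa, belongs to U1. It had 55.8, 47.3, 58.1 and 54.2 CPM in preSTC, 33.9, 31.2, 25.9 and 25.7 CPM in postSTC and 23.4, 29.5, 30.8 and 25.6 CPM in preCTC. Every preSTC library was above every other library, and postSTC and preCTC overlapped. The log2 fold change was -0.88 ± 0.13 (adjusted p = 0.00162) in postSTC against preSTC, 0.98 ± 0.13 (adjusted p = 0.000133) in preSTC against preCTC and 0.10 ± 0.13 (adjusted p = 0.651) in postSTC against preCTC. Its call in postSTC against preSTC was lost only with the replicate block in 8 libraries (adjusted p = 0.0814). Of the 8 tested members around U1, 4 fell in postSTC (50%, against 6.9% of all genes). In preSTC against preCTC 6 were higher (75%, against 19.1%). Of the other specific U1 proteins, named after their values were seen, Snrpc fell by 0.45 ± 0.12 (adjusted p = 0.0255) and Snrnp70 had -0.20 ± 0.09 (adjusted p = 0.141).

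Prpf40b, a U1-associated protein with WW domains, lay in the other direction. It had 7.66, 7.53, 8.29 and 8.88 CPM in preSTC, 11.1, 10.4, 9.60 and 19.4 CPM in postSTC and 12.9, 10.7, 10.5 and 14.6 CPM in preCTC. Its preSTC libraries were the lowest, and postSTC7 was far above the other postSTC libraries. The log2 fold change was 0.64 ± 0.22 (adjusted p = 0.0616) in postSTC against preSTC and -0.59 ± 0.22 (adjusted p = 0.0493) in preSTC against preCTC, and the second call was lost when any 1 of the 8 libraries compared was left out.

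Of 22 tested members around U2, 9 fell in postSTC (40.9%, against 6.9% of all genes). In preSTC against preCTC 11 were higher (50%, against 19.1%). The medians were -0.25 and 0.26. The U2AF heterodimer, which reads the end of the intron before U2 binds, fell in both its subunits. U2af2, its large subunit, had 209.6, 199, 213 and 184 CPM in preSTC, 145, 145, 139 and 157 CPM in postSTC and 142, 138, 140.2 and 125 CPM in preCTC. U2af1, its small subunit, had 91.3, 96.9, 93.97 and 87.2 CPM in preSTC, 65.1, 65.8, 71.6 and 66.5 CPM in postSTC and 74.3, 81.6, 66.9 and 67.9 CPM in preCTC. In both genes each preSTC library was above each postSTC and preCTC library. The log2 fold changes in postSTC against preSTC were -0.46 ± 0.08 (adjusted p = 0.00452) and -0.46 ± 0.08 (adjusted p = 0.00421), and those in preSTC against preCTC were 0.56 ± 0.08 (adjusted p = 0.000333) and 0.35 ± 0.08 (adjusted p = 0.00628).

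Snrpa1, which encodes a U2-specific protein with leucine-rich repeats, had 38.2, 32.9, 34.4 and 34.2 CPM in preSTC, 30.5, 22.9, 18.7 and 22.4 CPM in postSTC and 17.6, 22.03, 22.9 and 17.9 CPM in preCTC. Its log2 fold change was -0.56 ± 0.15 (adjusted p = 0.0229) in postSTC and 0.80 ± 0.15 (adjusted p = 0.00145) in preSTC against preCTC, and the first was no longer called with the block in 12 libraries (adjusted p = 0.0757) or without any of 5 single libraries. Within the SF3a and SF3b complexes, named after their values were seen, all 3 genes of SF3a fell (-0.46 ± 0.10 for Sf3a1, -0.40 ± 0.12 for Sf3a2 and -0.36 ± 0.09 for Sf3a3), as did Sf3b3 (-0.52 ± 0.11). Sf3b1, the large subunit of SF3b that holds the branch point, had -0.16 ± 0.10 (adjusted p = 0.281), and Sf3b5, the U2 member of highest FPKM (82.98), had -0.11 ± 0.09 (adjusted p = 0.436). The listed genes of SF3b other than Sf3b3 did not pass the test in postSTC against preSTC.

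The LSm ring binds the end of U6 RNA. Of its 7 tested genes 2 fell in postSTC (28.6%, against 6.9% of all genes). In preSTC against preCTC 5 were higher (71.4%, against 19.1%), and the class had the largest median of the core classes there, 0.51. Lsm4 had 58.8, 64.1, 63.9 and 52.1 CPM in preSTC, 49.9, 42.5, 40.6 and 39.3 CPM in postSTC and 31.8, 35.7, 35.9 and 29.6 CPM in preCTC. The 3 groups were in the order preSTC, postSTC, preCTC and did not overlap. Its log2 fold change was -0.47 ± 0.11 (adjusted p = 0.0133) in postSTC against preSTC, 0.84 ± 0.11 (adjusted p = 0.000135) in preSTC against preCTC and 0.37 ± 0.11 (adjusted p = 0.0357) in postSTC against preCTC. The last call was lost in 11 of the alternatives, 4 of them the loss of 1 library. Lsm5 fell by 0.56 ± 0.11 in postSTC (adjusted p = 0.0065, or 0.0558 with the block in 12 libraries). Lsm3, the LSm member of highest FPKM, had -0.35 ± 0.13 (adjusted p = 0.0745) and 0.72 ± 0.13 (adjusted p = 0.00102). The LSm proteins also act in RNA decay, in a ring that holds LSm1 in place of LSm8.

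The tri-snRNP of U4/U6 and U5 had 16 tested members, of which 6 fell in postSTC (37.5%, against 6.9% of all genes). In preSTC against preCTC 11 were higher (68.8%, against 19.1%). Prpf4, a U4/U6 protein, had 31.99, 30.9, 30.4 and 31.3 CPM in preSTC, 21.7, 22.6, 21.7 and 21.9 CPM in postSTC and 22.97, 22.8, 21.3 and 20.96 CPM in preCTC. Its libraries within a group were close together, and preSTC lay apart from both other groups. In log2 units the change was -0.50 ± 0.08 (adjusted p = 0.00225) in postSTC against preSTC, 0.50 ± 0.08 (adjusted p = 0.000457) in preSTC against preCTC and -0.00 ± 0.08 in postSTC against preCTC. Snrnp40, a WD-repeat protein of U5, had 53.3, 53.5, 60.9 and 51.4 CPM in preSTC, 37.7, 41.2, 38.3 and 32.2 CPM in postSTC and 34.4, 38.8, 37.1 and 30.98 CPM in preCTC, with log2 fold changes of -0.55 ± 0.11 (adjusted p = 0.00564) and 0.63 ± 0.11 (adjusted p = 0.000701) in the first and second of these comparisons. Snu13, which binds U4 and is the class member of highest FPKM (65.1), had -0.30 ± 0.10 (adjusted p = 0.0602) and 0.49 ± 0.10 (adjusted p = 0.00284), and its listed copy LOC100359574 is a pseudogene in RefSeq. The largest U5 proteins, named after their values were seen, did not pass the test in either comparison. Prpf8, the scaffold of the catalytic centre, had -0.22 ± 0.14 (adjusted p = 0.301) and -0.00 ± 0.14 (adjusted p = 0.981), and the helicase Snrnp200 had -0.19 ± 0.14 (adjusted p = 0.385) and 0.31 ± 0.14 (adjusted p = 0.111).

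The class of B complex proteins, which join with the tri-snRNP, had 3 tested members. Wbp11, which carries proline-rich motifs, had -0.43 ± 0.10 (adjusted p = 0.0133) in postSTC against preSTC and 0.33 ± 0.10 (adjusted p = 0.0214) in preSTC against preCTC. Prpf38a had -0.30 ± 0.11 (adjusted p = 0.0703) and 0.35 ± 0.11 (adjusted p = 0.0221). All 3 were called higher in preSTC than in preCTC (100%, against 19.1% of all genes). The calls of Wbp11 and Prpf38a in that comparison were each lost in 6 of the alternatives, among them upper-quartile factors and the loss of preCTC1, preCTC9 or preSTC7.

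The Prp19 complex and its partners stabilise the catalytic spliceosome. Of 17 tested, 3 fell in postSTC (17.6%, against 6.9% of all genes) and 1 rose (5.88%, against 11.1%). The change was negative in 13 of the 17, with a median of -0.19. In preSTC against preCTC 6 were higher (35.3%, against 19.1%). Syf2, a component of the active spliceosome, was the only member outside the heat shock proteins that rose. It had 60.1, 72.2, 65.5 and 68.1 CPM in preSTC, 78.9, 81.9, 89.2 and 90.5 CPM in postSTC and 80.2, 74.4, 79.6 and 73.2 CPM in preCTC. All postSTC libraries were above all preSTC libraries, and preCTC lay above preSTC and overlapped postSTC. As a log2 fold change this was 0.36 ± 0.08 (adjusted p = 0.0133) in postSTC against preSTC, or an adjusted p of 0.0589 with the block in 12 libraries, and -0.21 ± 0.08 (adjusted p = 0.0633) in preSTC against preCTC. Ctnnbl1 fell by 0.33 ± 0.10 (adjusted p = 0.0403), a call that was lost in 12 of the alternatives, 7 of them the loss of 1 library, and it was 0.63 ± 0.10 in preSTC against preCTC (adjusted p = 0.000512). Bud31 had 0.08 ± 0.09 and 0.23 ± 0.09 in these comparisons, neither of which passed the test.

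The helicases drive the rearrangements between steps. Of the 9 tested helicases and second-step factors, 1 fell in postSTC (Ddx39b), which is 11.1% beside 6.9% of all genes. By edgeR none was called in preSTC against preCTC. There 3 were higher at an unadjusted p under 0.05, as were 3709 of all 15704 genes. The class medians were -0.16 and 0.02. Ddx39b, the helicase UAP56 that loads the export machinery, had 243, 226, 226 and 226 CPM in preSTC, 198, 178, 161 and 174 CPM in postSTC and 219.6, 167, 206 and 181 CPM in preCTC. Its log2 fold changes were -0.37 ± 0.10 (adjusted p = 0.0303) and 0.25 ± 0.10 (adjusted p = 0.0745), and the first call was lost in 10 of the alternatives, 6 of them the loss of 1 library. Ddx5, at a mean FPKM of 225 the most abundant member outside the heat shock proteins, had -0.16 ± 0.10 (adjusted p = 0.264) and -0.05 ± 0.10 (adjusted p = 0.713).

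The exon junction complex and TREX, which couple splicing to export, had 9 tested members. Of these 4 fell in postSTC (44.4%, against 6.9% of all genes). In preSTC against preCTC 5 were higher (55.6%, against 19.1%). Eif4a3, the helicase that anchors the exon junction complex, had 141, 132, 146 and 141 CPM in preSTC, 87.4, 105, 101 and 109 CPM in postSTC and 114, 104, 101 and 103 CPM in preCTC. Alyref, the export adaptor of TREX, had 106, 93.4, 104 and 86.1 CPM in preSTC, 70.3, 73.2, 61.1 and 61.6 CPM in postSTC and 65.8, 62.8, 59.1 and 50.8 CPM in preCTC. In both genes each preSTC library was above each library of the other groups. The log2 fold changes in postSTC against preSTC were -0.48 ± 0.08 (adjusted p = 0.00384) for Eif4a3 and -0.55 ± 0.11 (adjusted p = 0.00639) for Alyref. In preSTC against preCTC they were 0.41 ± 0.08 (adjusted p = 0.00283) and 0.71 ± 0.11 (adjusted p = 0.000376).

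**Figure D3:**
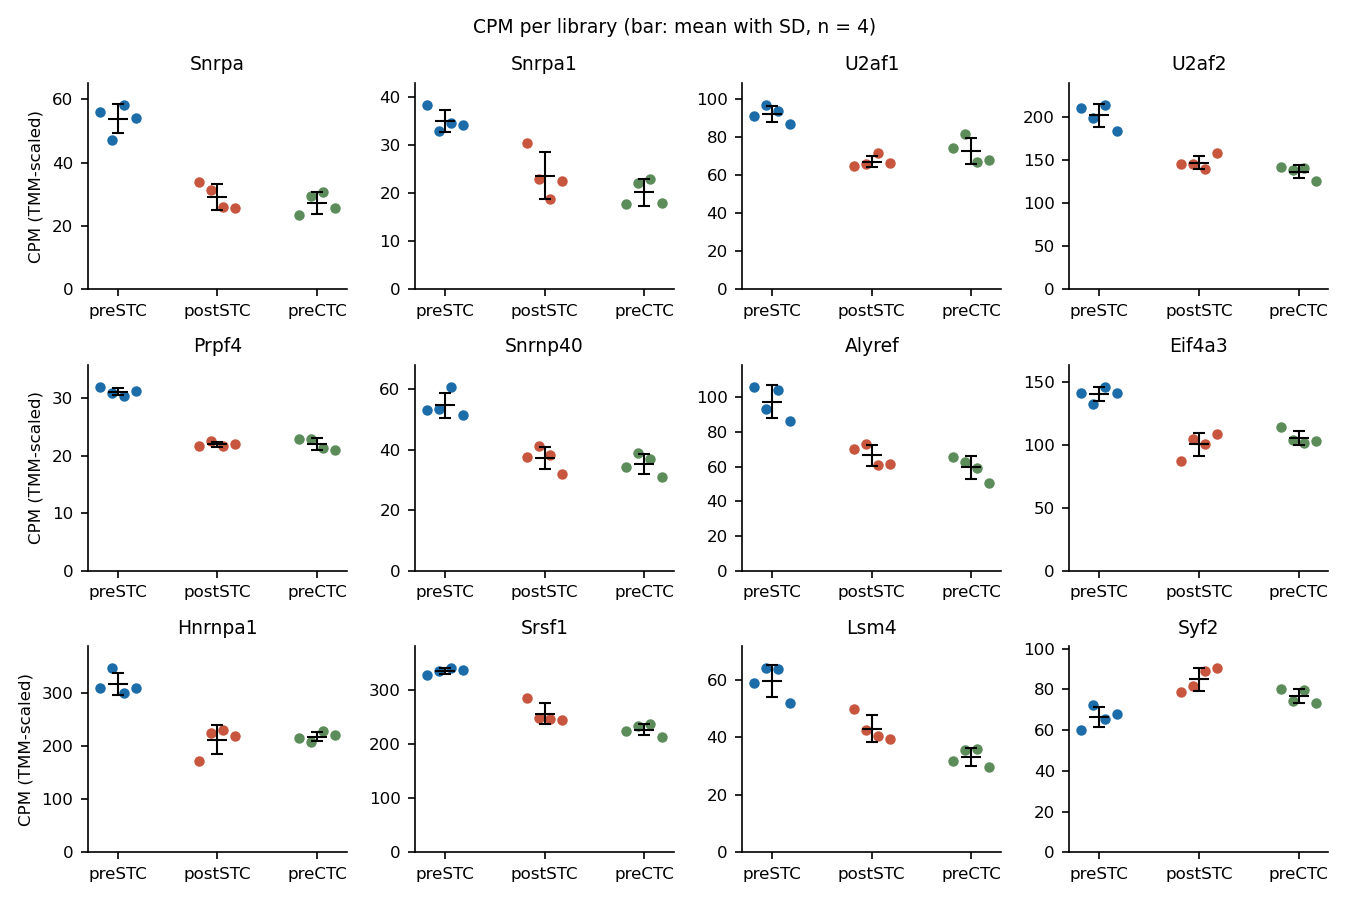
CPM of 12 spliceosome members in each of 12 libraries. Points are libraries, the bar and whiskers are the mean with SD of 4, and each axis starts at 0. The preSTC libraries are above both other groups in every panel but that of Syf2, where they are lowest.

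Among regulators that bind the transcript, 6 of 11 SR proteins fell in postSTC (54.5%, against 6.9% of all genes). In preSTC against preCTC 7 were higher (63.6%, against 19.1%). The medians were -0.31 and 0.42. Srsf1, the founding SR protein, had 328, 336, 341 and 339 CPM in preSTC, 287, 249, 248 and 245 CPM in postSTC and 224, 234, 237 and 214 CPM in preCTC. Its postSTC1 library was above the other postSTC libraries and still below preSTC. In log2 units the change was -0.39 ± 0.09 (adjusted p = 0.011) in postSTC against preSTC, or an adjusted p of 0.0658 with the block in 12 libraries, and 0.56 ± 0.09 (adjusted p = 0.000391) in preSTC against preCTC. Tra2b, which binds exonic enhancers, had -0.46 ± 0.10 (adjusted p = 0.0098) and 0.49 ± 0.10 (adjusted p = 0.00226). Srsf2 had -0.34 ± 0.10 (adjusted p = 0.0343) and 0.45 ± 0.10 (adjusted p = 0.00384), and its first call was lost in 12 of the alternatives, 7 of them the loss of 1 library.

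Of 11 hnRNPs and cap-binding proteins, 4 fell in postSTC (36.4%, against 6.9% of all genes). In preSTC against preCTC 8 were higher (72.7%, against 19.1%) and 1 was lower (9.09%, against 19.6%). Hnrnpa1, an abundant silencer of exons at a mean FPKM of 113, had 309.6, 347, 300.0 and 309.6 CPM in preSTC, 172, 225, 231 and 220.0 CPM in postSTC and 215, 208, 228 and 222 CPM in preCTC. Its preSTC libraries stood above both other groups, which overlapped. As a log2 fold change this was -0.58 ± 0.11 (adjusted p = 0.00469) in postSTC against preSTC and 0.54 ± 0.11 (adjusted p = 0.00208) in preSTC against preCTC. Pcbp1, a poly(C)-binding protein of higher FPKM (173), had -0.28 ± 0.10 (adjusted p = 0.0805) and 0.41 ± 0.10 (adjusted p = 0.00968).

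The subunits of the nuclear cap-binding complex went in opposite directions in preSTC against preCTC. Ncbp2, the small subunit that holds the cap, had 48.4, 54.8, 51.9 and 56.1 CPM in preSTC, 58.1, 63.1, 91.4 and 63.96 CPM in postSTC and 85.9, 174, 104 and 114 CPM in preCTC. Every preCTC library except preCTC1 was above every other library, and preCTC5 was the highest. In log2 units the change was -1.18 ± 0.20 (adjusted p = 0.000881) in preSTC against preCTC, -0.79 ± 0.20 (adjusted p = 0.02) in postSTC against preCTC and 0.39 ± 0.20 (adjusted p = 0.199) in postSTC against preSTC. Ncbp1, the large subunit, had 69.8, 71.2, 65.01 and 66.7 CPM in preSTC, 55.9, 63.3, 55.4 and 59.03 CPM in postSTC and 45.97, 53.6, 43.4 and 44.9 CPM in preCTC, and its log2 fold changes in the same order were 0.54 ± 0.09 (adjusted p = 0.000579), 0.32 ± 0.09 (adjusted p = 0.0285) and -0.22 ± 0.09 (adjusted p = 0.0953). The call of Ncbp2 in postSTC against preCTC was lost in the 8 libraries alone and without postSTC2. That of Ncbp1 in the same comparison was lost in 10 of the alternatives, 4 of them the loss of 1 library. No test of the difference between the subunits was made.

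The remaining class holds copies and members of other roles. Of its 7 tested genes, Rbm25l1, a copy of the U1-related Rbm25 and named after its value was seen, was the one called, at 0.52 ± 0.12 (adjusted p = 0.00629) in preSTC against preCTC. That is 14.3% of the class, below the 19.1% of all genes. Pqbp1, a polyglutamine-binding protein and the class member of highest FPKM (16.6), had -0.12 ± 0.11 (adjusted p = 0.501) and 0.19 ± 0.11 (adjusted p = 0.198).

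Besides Ncbp1 and Ncbp2, the members called in postSTC against preCTC were Lsm4, given above, and Bud31, which had 0.31 ± 0.09 (adjusted p = 0.0353). At an unadjusted p under 0.05, 10 of 132 members were higher and 9 lower. Of all 15704 genes, 2715 were higher and 2129 lower, a larger share in each direction. Of the 3 higher calls, Bud31 was lost in 12 of the alternatives (5 of them the loss of 1 library), Lsm4 in 11 (4) and Ncbp1 in 10 (4). All 3 were lost with the replicate block in 12 libraries and in the 8 libraries alone. DESeq2 called 8 members higher and 4 lower (6.06 and 3.03%, against 12.4 and 10.1% of all genes), among them those called by edgeR. Upper-quartile factors gave 0 higher and 5 lower (0 and 3.79%, against 7.95 and 9.32%). A member that edgeR did not call is not shown to be alike in these groups.

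Of the 5 heat shock protein genes, 4 had signs opposite to the medians of the core members, and Hspa8 did not. HSP70 chaperones fold proteins under stress, Hspa1b and its near copies are strongly induced by heat and injury, Hspa8 is the constitutive form that also uncoats clathrin vesicles, and Hspa2 and Hspa1l are best known from the male germ line. Hspa1b rose in postSTC (20% of the class, against 11.1% of all genes). The same 4 were lower in preSTC than in preCTC (80%, against 19.6%). The class median log2 fold changes were 0.93 and -1.83. The testis markers Prm1, Prm2 and Ldhc were together at 0.168 CPM or less in every library.

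Hspa1b had 6.37, 6.53, 5.67 and 4.59 CPM in preSTC, 11.6, 15.1, 9.26 and 11.8 CPM in postSTC and 21.5, 35.3, 10.7 and 15.03 CPM in preCTC. The preSTC libraries were the lowest, and postSTC and preCTC overlapped. Its log2 fold change was 1.04 ± 0.31 (adjusted p = 0.0392) in postSTC against preSTC, -1.83 ± 0.32 (adjusted p = 0.000928) in preSTC against preCTC and -0.79 ± 0.31 (adjusted p = 0.104) in postSTC against preCTC. The first call was lost with limma voom (adjusted p = 0.103), with the block in 12 libraries (adjusted p = 0.131) and without any of 6 single libraries, among them postSTC7 (adjusted p = 0.0558). The identifier given as Hspa1b in the deposited table is named Hspa1a in RefSeq, and LOC108348108 is named Hspa1b there. The 2 are near-identical copies, and the RefSeq span of the first overlaps Hspa1l, so counts may be split or shared among these genes.

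LOC108348108 had 2.68, 1.14, 1.16 and 1.85 CPM in preSTC, 3.33, 3.33, 3.57 and 2.78 CPM in postSTC and 6.23, 13.5, 2.37 and 4.70 CPM in preCTC. Hspa1l, the least abundant, had 0.175, 0.155, 0.378 and 0.308 CPM in preSTC, 0.776, 0.518, 0.958 and 0.269 CPM in postSTC and 1.15, 1.88, 0.257 and 1.64 CPM in preCTC. Hspa2 had 14.2, 15.6, 21.04 and 19.7 CPM in preSTC, 16.5, 22.2, 25.4 and 18.6 CPM in postSTC and 19.9, 33.1, 28.6 and 26.4 CPM in preCTC. In each of the 3 the highest library was in preCTC and the preCTC libraries spread widely. The log2 fold changes in preSTC against preCTC were -1.97 ± 0.47 (adjusted p = 0.00617) for LOC108348108, -2.26 ± 0.61 (adjusted p = 0.0121) for Hspa1l and -0.62 ± 0.19 (adjusted p = 0.0232) for Hspa2. In postSTC against preSTC they were 0.93 ± 0.46 (adjusted p = 0.18), 1.31 ± 0.61 (adjusted p = 0.152) and 0.23 ± 0.19 (adjusted p = 0.431). The call of Hspa2 was lost without preCTC5, preCTC7, preSTC1 or preSTC5. It was also lost with limma on log2 FPKM plus 0.1 or 1 (adjusted p = 0.0663 and 0.0634). The call of Hspa1l was lost with limma voom (adjusted p = 0.0509) and with the replicate block.

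Hspa8 was the most abundant member per length, at a mean FPKM of 531, and had 1324, 1259, 1353 and 969 CPM in preSTC, 890.2, 1272, 951 and 1437 CPM in postSTC and 889, 1013, 1129 and 922 CPM in preCTC. All 3 groups overlapped. Its log2 fold changes were -0.11 ± 0.18 (adjusted p = 0.71), 0.31 ± 0.18 (adjusted p = 0.191) and 0.20 ± 0.18 (adjusted p = 0.483) in the 3 comparisons in the order above, and the last was negative on unscaled FPKM. Among the heat shock members with an entry, only Hspa8 held the 3-unit heat shock element (GAA and TTC in alternation with NN between) in its 250 bases upstream, as did 0.43% of starts of genes in the count table. For the others, this says only that these letters are not in that window.

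**Figure D4:**
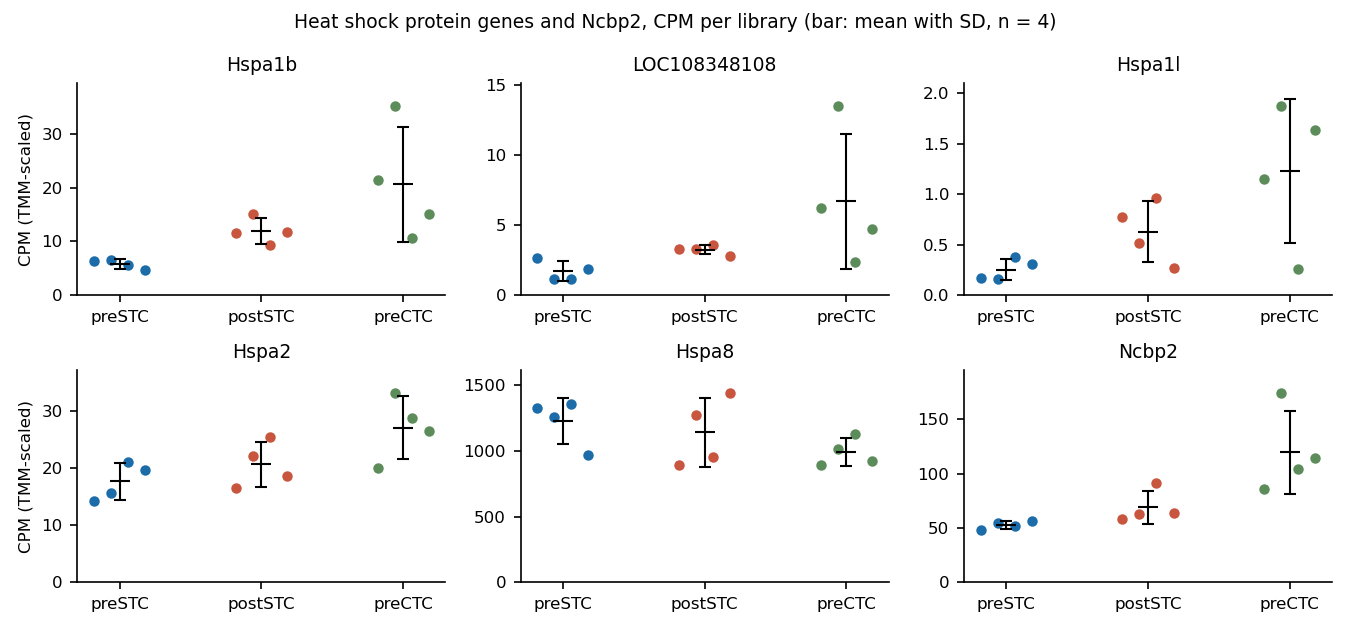
CPM of the 5 heat shock protein genes and of Ncbp2 in each library, with the mean and SD of 4, each axis starting at 0. The preCTC libraries spread most for all but Hspa8, which overlaps in all 3 groups.

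Markers of proliferating cells moved in the direction of the core members, and those of smooth muscle in the opposite direction. All 10 cell cycle genes listed (such as Mki67, Top2a and Mcm5) fell in postSTC against preSTC (100%, beside 6.9% of all genes). All 10 were also higher in preSTC than in preCTC (100%, beside 19.1%). Their summed CPM was 1042 to 1214 in preSTC, 438 to 617 in postSTC and 560 to 634 in preCTC. Of 8 smooth muscle markers, 5 rose in postSTC (62.5%, beside 11.1% of all genes). All 8 were lower in preSTC than in preCTC (100%, beside 19.6%). The smooth muscle markers had summed CPM of 2437 to 3607 in preSTC, 4567 to 7365 in postSTC and 7755 to 12835 in preCTC. No smooth muscle or cell cycle marker was at 0 in any library. Epithelial markers summed to 13075 to 16650 CPM in preSTC, 6173 to 13415 in postSTC and 8243 to 12147 in preCTC, but were mixed gene by gene. Of the 8, only Vil1 was called in postSTC against preSTC, where it fell (12.5%, beside 6.9% of all genes). In preSTC against preCTC 3 were higher (37.5%, beside 19.1%) and 1 lower (12.5%, beside 19.6%). The lower one was Cdx1 (-0.74 ± 0.21, adjusted p = 0.0173). The part of these cell types in the changes of the spliceosome genes was not tested.

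Splicing genes outside the pathway were read from lists of related factors. Of 16 other hnRNPs, 8 fell in postSTC (50%, beside 6.9% of all genes) and 9 were higher in preSTC than in preCTC (56.2%, beside 19.1%), with medians of -0.32 and 0.27. Hnrnpd (AUF1), a protein of AU-rich RNA, had log2 fold changes of -0.65 ± 0.09 (adjusted p = 0.00133) and 0.65 ± 0.09 (adjusted p = 0.000186). Hnrnpl fell by 0.35 ± 0.08 in postSTC (adjusted p = 0.0164), and Tardbp was 0.55 ± 0.10 in preSTC against preCTC (adjusted p = 0.00148). Of 14 SR protein kinases and SR-related genes, 2 fell in postSTC (14.3%, beside 6.9% of all genes), namely the kinase Srpk1 (-0.42 ± 0.07, adjusted p = 0.00355) and Rnps1 (-0.34 ± 0.10, adjusted p = 0.0339).

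The 36 tested tissue splicing regulators were mixed, with 6 higher and 4 lower in postSTC against preSTC (16.7 and 11.1%, beside 11.1 and 6.9% of all genes). In preSTC against preCTC, 7 were higher and 8 lower (19.4 and 22.2%), which is near the 19.1 and 19.6% of all genes. Their medians were 0.01 and -0.21. Khdrbs3 (T-STAR) and Rbpms2, an RNA-binding protein of visceral smooth muscle, rose in postSTC by 1.34 ± 0.29 (adjusted p = 0.00939) and 0.79 ± 0.19 (adjusted p = 0.0155). Khdrbs1 (Sam68) fell by 0.39 ± 0.07 (adjusted p = 0.00484) and Ptbp1, the repressor of many tissue-specific exons, by 0.50 ± 0.11 (adjusted p = 0.00916). In preSTC against preCTC, Rbpms2 was -1.31 ± 0.19 (adjusted p = 0.000301) and Mbnl2 -0.54 ± 0.09 (adjusted p = 0.000667). Esrp1, the epithelial splicing regulator, was the 1 gene of the list called in postSTC against preCTC, at -0.79 ± 0.15 (adjusted p = 0.00381). That is 2.78% of the list lower and 0% higher, below the 7.37 and 9.27% of all genes.

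**Figure D5:**
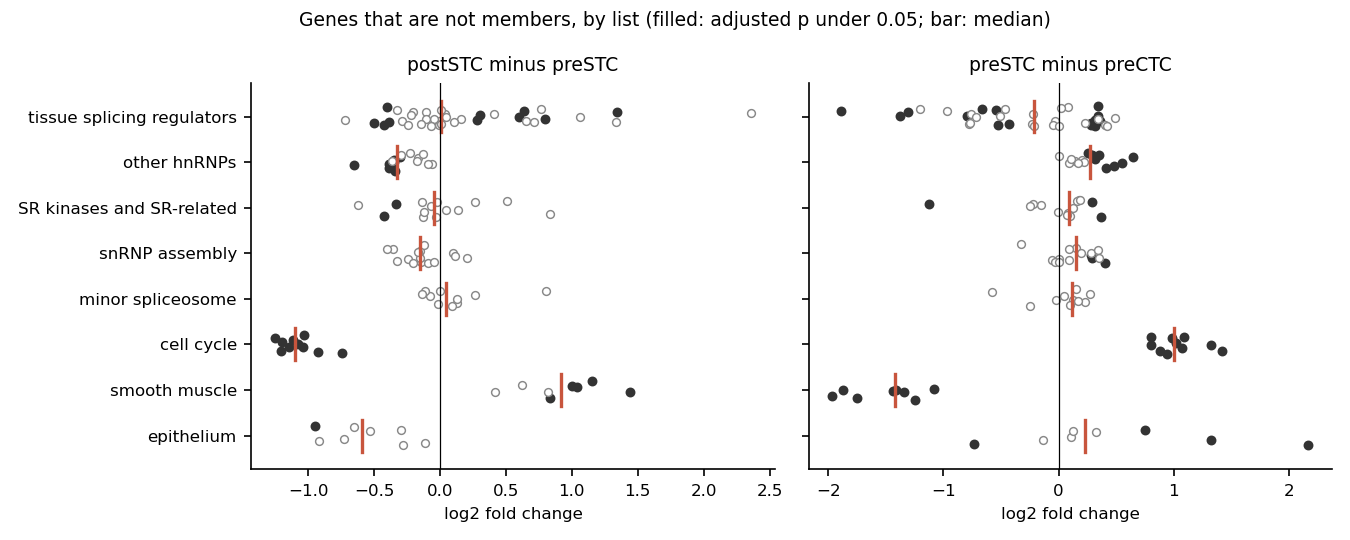
Log2 fold change of genes outside the pathway by list, for postSTC minus preSTC and preSTC minus preCTC. Filled points passed the test and bars are medians. The other hnRNPs and the cell cycle genes lie mostly left of 0 in the first panel and right of 0 in the second, and smooth muscle the reverse.

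Some members share their place in the genome with another gene. In RefSeq, 33 of 133 members overlap another protein-coding gene, among them Snrpa (Actmap), Hnrnpa1 (Cbx5), Srsf1 (Vezf1), Wbp11 (Smco3l1), Ncbp1 (Xpa), Ddx5 (Cep95), Bud31 (Hint1l2 and Ptcd1) and Prpf40b (Fam186b and Mcrs1). Whether counting used strand is not given in the sources used here, so reads of such pairs may not be told apart.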

How the data were processed

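Polyadenylated RNA of 12 rat intestine libraries was analysed, 4 in each of 3 groups taken with their replicate numbers from the sample titles. The deposited table holds whole read counts per gene, for which the submitters' processing notes name fastp, HISAT2, HTSeq and the assembly mRatBN7.2, with no roles or versions. The series' design text describes ileum and a pig genome, which the rat gene symbols do not match, and was not used. The authors also deposited FPKM values, which were proportional within a gene to its count over the library total (largest relative deviation 7e-16). For strand use and reads with several matches, nothing is given in the sources used here.

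In R 4.3.3 with edgeR 4.0.16, 15704 genes (83.8%) passed filterByExpr, libraries were scaled by TMM, and 1 quasi-likelihood model with the group was fitted to all 12 libraries (biological coefficient of variation 0.322). Calls use two-sided tests adjusted by Benjamini-Hochberg over all genes tested. The SE is the absolute log2 fold change over the square root of F. Levels between genes are FPKM rescaled here by the TMM factors. The test was checked on simulated counts, with changes larger than those of the members that fell in postSTC. No library like postSTC7 and no pairing of replicates was simulated, so the check does not cover these. Every pair of replicates differed beyond counting noise (lowest mean chi-square per gene 32), which does not show that they are separate animals. Each library was counted once. Total counts of 30095656 to 39374682 per library set the precision, and reads without molecular identifiers carry amplification error beyond counting error.

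The replicate numbers were checked by the correlation of deviations from the group means. For postSTC and preSTC these were 0.31, 0.21 and 0.18 for numbers 1, 5 and 7, and at most 0.13 between different numbers. For preSTC and preCTC they were 0.27, -0.03, 0.21 and 0.12 for numbers 1, 5, 7 and 9, and up to 0.26 between different numbers. For postSTC and preCTC they were 0.22, -0.04 and 0.04 for numbers 1, 5 and 7, and up to 0.18 between different numbers. These values do not settle whether the numbers pair samples. Alternatives were DESeq2 1.42.0, limma 3.58.1 (voom, or log2 FPKM plus 0.1 or 1), upper-quartile factors, no filter, 8 libraries, replicate block, leaving out each library, removal of accessory gland genes, and TMM-scaled FPKM, the last chosen after seeing the data. The members, lists, classes and tests were chosen with earlier results of these data known, and 9 members missing from the class list were placed in a class after the table was read. Named are the 8 higher and 8 lower called members of smallest adjusted p per comparison, per class the member of highest FPKM and the called member of largest change in postSTC against preSTC, all heat shock proteins, and 2 called genes per direction of each other list. Genes outside this rule are marked as named after their values were seen. Some members that the rule names are not reported here.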

Additional observations from a re-analysis of the deposited data

Results flagged for a closer look

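In 111 groups of 4 libraries (37 named members in 3 groups), 4 held a library whose gap to the nearest of the others exceeded the 95% critical value of Dixon's test. Chance flags about 1 in 20 groups. Ddx39b was at 243 CPM in preSTC1, with the other preSTC libraries between 225.9 and 226.5 CPM. Srsf1 was at 287 CPM in postSTC1, with the others between 245 and 249 CPM. Prpf38a was at 31.5 CPM and Prpf40b at 19.4 CPM in postSTC7, with the other postSTC libraries between 40.03 and 41.5 CPM and between 9.60 and 11.1 CPM. The library postSTC7 is the one with 44.2% of its counts in accessory gland genes.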

How the results depend on the processing

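Members kept the direction of their median log2 fold change in postSTC against preSTC and in preSTC against preCTC under every alternative run. In postSTC against preSTC (2 higher, 45 lower, median -0.23), limma on FPKM as deposited called 0 higher and 2 lower with either pseudocount (medians -0.36 and -0.34). These 2 were 1.52% of members, near the 1.23 and 1.35% of all genes, so no excess of lower members was seen there. FPKM rescaled by TMM called 1 and 47 (0.758 and 35.6%, against 8.18 and 7.36% of all genes). The deposited FPKM is not rescaled for the library with 44.2% accessory gland counts. The replicate block called 0 higher and 26 lower in 12 libraries (median -0.26) and 0 and 0 in 8 libraries (median -0.28), and 8 and 22 of the 22 named calls were lost. limma voom called 1 higher (0.758%, against 8.04% of all genes). The median was -0.25 in 8 libraries without the block and with accessory gland genes removed, and -0.28 with the median of all genes subtracted. Leaving out 1 library gave 1 to 3 higher, 26 to 49 lower and medians of -0.27 to -0.23. The higher ones were 0.758 to 2.27% of members (6.27 to 13.9% of all genes), and the lower ones 19.7 to 37.1% (3.78 to 9.25%). In preSTC against preCTC (67 higher, 6 lower, median 0.28), FPKM as deposited called 2 higher (medians 0.12). These 2 were 1.52% of members, below the 7.15 and 7.17% of all genes. Upper-quartile factors gave a median of 0.22, and leaving out 1 library gave 52 to 62 higher, 4 to 5 lower and medians of 0.26 to 0.30. The higher ones were 39.4 to 47% of members (15.5 to 16.9% of all genes), and the lower ones 3.03 to 3.79% (16 to 17.5%). Whether the numbers pair these groups is not settled, and the block called 59 higher and 4 lower in 12 libraries. These were 44.7 and 3.03% of members, against 18.1 and 18.4% of all genes. In postSTC against preCTC (3 higher, 1 lower, median 0.05), DESeq2 called 8 and 4, voom 2 lower, upper-quartile factors 0 and 5 with a reversed median of -0.0095, and FPKM 0 and 2 with reversed medians of -0.22 and -0.21. TMM-scaled FPKM called 2 lower, the 8 libraries 0 and 0, the block 0 higher in 12 libraries and 0 and 0 in 8 (median 0.0095), and removal of accessory gland genes 1 and 2. Leaving out 1 library gave 0 to 4 higher, 0 to 3 lower and medians of 0.03 to 0.07. In every fit of postSTC against preCTC, the share of members called was below that of all genes in each direction. Hspa8 turned to -0.10 in this comparison on FPKM with either pseudocount. The cause of these shifts was not tested. Depth limits the genes of few counts: Hspa1l was at 0.155 CPM in its lowest preSTC library.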

Other observations

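Genes that build snRNPs or serve the minor spliceosome, which removes a rare class of introns, were read beside the members. Of 15 snRNP assembly genes, 3 were higher in preSTC than in preCTC (20%, near the 19.1% of all genes), among them Smn1, the survival of motor neuron gene (0.29 ± 0.10, SE, edgeR adjusted p = 0.0358), and Strap (0.28 ± 0.08, adjusted p = 0.0157). Their median log2 fold change was -0.15 in postSTC against preSTC. Of 10 minor spliceosome genes, Scnm1 was the one called, which is 10% beside 9.27% of all genes, and it was higher in postSTC than in preCTC (0.41 ± 0.13, adjusted p = 0.0490), and their medians were 0.05 in postSTC against preSTC, 0.11 in preSTC against preCTC, and 0.17 between postSTC and preCTC.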
